A study of Mus musculus with 6 samples.

Results

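The lectin genes described here were the 10 listed members of the Clec2 and Klrb1 families on mouse chromosome 6, out of 38561 genes in the deposited count tables. They comprised 7 Clec2 genes (Clec2d, Clec2e, Clec2f, Clec2g, Clec2h, Clec2i and Clec2j) and 3 Klrb1 genes (Klrb1, Klrb1b and Klrb1f), and each was found by its gene symbol. The list was chosen by a measured value, the difference in counts between genotypes, because Clec2j and Klrb1 were among the larger falls in this contrast. The differences between genotypes for all 10 genes are therefore given as a description, and no test is drawn from them.

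Polyadenylated RNA from small intestinal mucosa of C57BL/6J mice aged 8 to 12 weeks was sequenced in 6 pools, 3 labelled Rbm47_IKO and 3 labelled wt, each made from 3 mice of both sexes. In Rbm47-IKO mice, the gene for the RNA-binding protein RBM47 was deleted by a constitutive Cre recombinase under the villin promoter, which acts in the intestinal epithelium and not in the lymphocytes within it. The study's methods describe the control mice as Rbm47 fl/fl animals, whereas the labels call them wt. For the number of mice in a pool, the methods give a range that starts at the labels' number and goes above it. A pool value is an average over its mice, so that differences among single mice were not measured, and p-values measure only the spread between pools.

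The Clec2 genes encode C-type lectin-like proteins on the cell surface (the Clr proteins), and the Klrb1 genes encode the NKR-P1 receptors of natural killer cells and some T cells. The ligands and receptors lie interspersed in the natural killer gene complex and bind each other in pairings that partly overlap, since a receptor can have several Clr ligands. Clr-b (Clec2d) is bound by the inhibitory receptor NKR-P1B (Klrb1b), Clr-g (Clec2i) by NKR-P1F (Klrb1f), and Clr-f (Clec2h) by NKR-P1G (Klrb1). In the gut, Clr-f is a product of epithelial cells and NKR-P1G is found on intraepithelial lymphocytes, the T cells that sit between enterocytes.

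The 10 genes spanned 534.1 kb at chr6:128652438-129186534 (GRCm38), with Clec2j at one end and Clec2d at the other. Promoter windows of 300 bases (250 before and 50 after the transcription start) were held by RefSeq (GRCm38.p6) for 8 of the 10 genes. Those of the 3 most abundant genes (Clec2h, Clec2e and Clec2d) and of Klrb1, the receptor with the highest level, are printed here, because the levels of these 4 genes are compared below. The windows lie at chr6:128662135-128662434 (plus strand) for Clec2h, chr6:129100854-129101153 (minus strand) for Clec2e, chr6:129180365-129180664 (plus strand) for Clec2d and chr6:128723048-128723347 (minus strand) for Klrb1. Capitals mark matches, on either strand, to any of 6 short motifs. These were GTTAAT for the hepatocyte nuclear factors of the HNF1 group, CAAAGT for the nuclear receptors of the HNF4 group and TTTAT for the intestinal homeodomain factors of the CDX group. The rest were AGATAA for the zinc finger factors of the GATA group, TGTGGT for the lymphoid and myeloid factors of the RUNX group, and TATAAA for the TATA box.
Clec2h: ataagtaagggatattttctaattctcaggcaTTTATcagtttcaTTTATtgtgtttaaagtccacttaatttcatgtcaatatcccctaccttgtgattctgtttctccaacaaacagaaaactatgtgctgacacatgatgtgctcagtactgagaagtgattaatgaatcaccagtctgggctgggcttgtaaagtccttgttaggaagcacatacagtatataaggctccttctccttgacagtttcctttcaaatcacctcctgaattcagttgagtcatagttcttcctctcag
Clec2e: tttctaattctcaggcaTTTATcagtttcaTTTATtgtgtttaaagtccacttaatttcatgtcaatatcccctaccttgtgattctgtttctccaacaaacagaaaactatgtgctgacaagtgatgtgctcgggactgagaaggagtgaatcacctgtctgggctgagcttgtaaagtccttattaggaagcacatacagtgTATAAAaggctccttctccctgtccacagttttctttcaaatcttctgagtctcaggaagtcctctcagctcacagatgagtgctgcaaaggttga
Clec2d: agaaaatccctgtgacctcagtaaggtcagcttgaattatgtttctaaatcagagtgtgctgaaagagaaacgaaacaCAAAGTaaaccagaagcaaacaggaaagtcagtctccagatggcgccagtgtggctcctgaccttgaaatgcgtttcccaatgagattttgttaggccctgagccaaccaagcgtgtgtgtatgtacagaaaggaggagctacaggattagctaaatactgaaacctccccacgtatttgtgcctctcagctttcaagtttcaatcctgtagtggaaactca
Klrb1: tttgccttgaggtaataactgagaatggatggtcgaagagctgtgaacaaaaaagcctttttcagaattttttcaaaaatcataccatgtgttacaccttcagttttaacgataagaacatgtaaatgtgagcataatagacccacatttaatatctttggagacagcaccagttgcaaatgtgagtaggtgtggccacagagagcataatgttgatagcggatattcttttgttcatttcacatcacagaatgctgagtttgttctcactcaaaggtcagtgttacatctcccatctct

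The Clec2h and Clec2e windows were 95.5% identical over 242 aligned bases and shared an unbroken run of 121 bases. Both held a pair of TTTAT matches, the letters of the intestinal CDX factors, at positions -218 and -205 from the start in Clec2h and at -233 and -220 in Clec2e. Clec2e held another TTTAT match at -45, which overlapped its single TATAAA match at -46. Of 32544 promoter windows of this length, 39.9% held TTTAT and 13.6% held TATAAA. The Clec2d window held 1 CAAAGT match, at -172, a motif present in 14.4% of windows. The Klrb1 window held none of the 6 motifs, which says only that these letters were not in it. The Klrb1 window was 71.3% identical over 251 aligned bases to that of its relative Klrb1b. A match is a description of letters and not of a bound site.

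Total counts ran from 31560320 to 38951830 per pool, and values below are CPM (counts scaled to the library size) adjusted by TMM unless a raw count is named. The targeted gene was no lower where its deletion was labelled. Rbm47 had 20864, 23658 and 20236 counts in Rbm47-IKO pools 1 to 3, against 15635, 17076 and 17206 in the wt pools, a log2 difference of 0.42 (SE 0.10, adjusted p = 0.0751, edgeR quasi-likelihood test). All Rbm47-IKO pools lay above all wt pools, and Rbm47 was called higher by DESeq2 (adjusted p = 0.00105) and with library size only (0.0473). This RNA therefore does not check the labels, since which exons the reads came from was not analysed here, and every direction below is that of the pools as labelled. Muscle genes summed to 3302 CPM in Rbm47-IKO pool 3 and 2803 CPM in wt pool 2, against 90.7 to 586 CPM in the other pools, and leaving out that pair brought the genes called from 443 to 327. Across the 16425 genes past the filter on low counts, 443 passed an adjusted p of 0.05 (238 higher and 205 lower in Rbm47-IKO).

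Of the 10 lectin genes, 6 passed the filter on low counts (Clec2h, Clec2e, Clec2d, Clec2i, Clec2j and Klrb1), and 4 did not (Clec2f, Clec2g, Klrb1b and Klrb1f). Clec2j and Klrb1 were the 2 called lower and none was called higher, where 1.25% of all tested genes were called lower and 2.70% in either direction. The same 2 genes had Rbm47-IKO pools that all lay below all wt pools, as did 11.6% of all tested genes. These counts come from the contrast that chose the genes and change when single pools are left out, and nothing is read from them. The median log2 fold change of the 6 genes was -0.15, beside -0.00586 over all tested genes, and ran from -0.24 to -0.03 when a single pool was left out (-0.03 without wt pool 3). It was -0.42 without the pair of muscle-rich pools, and -0.02 over 9 of the 10 genes with no filter on low counts.

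**Figure D1:**
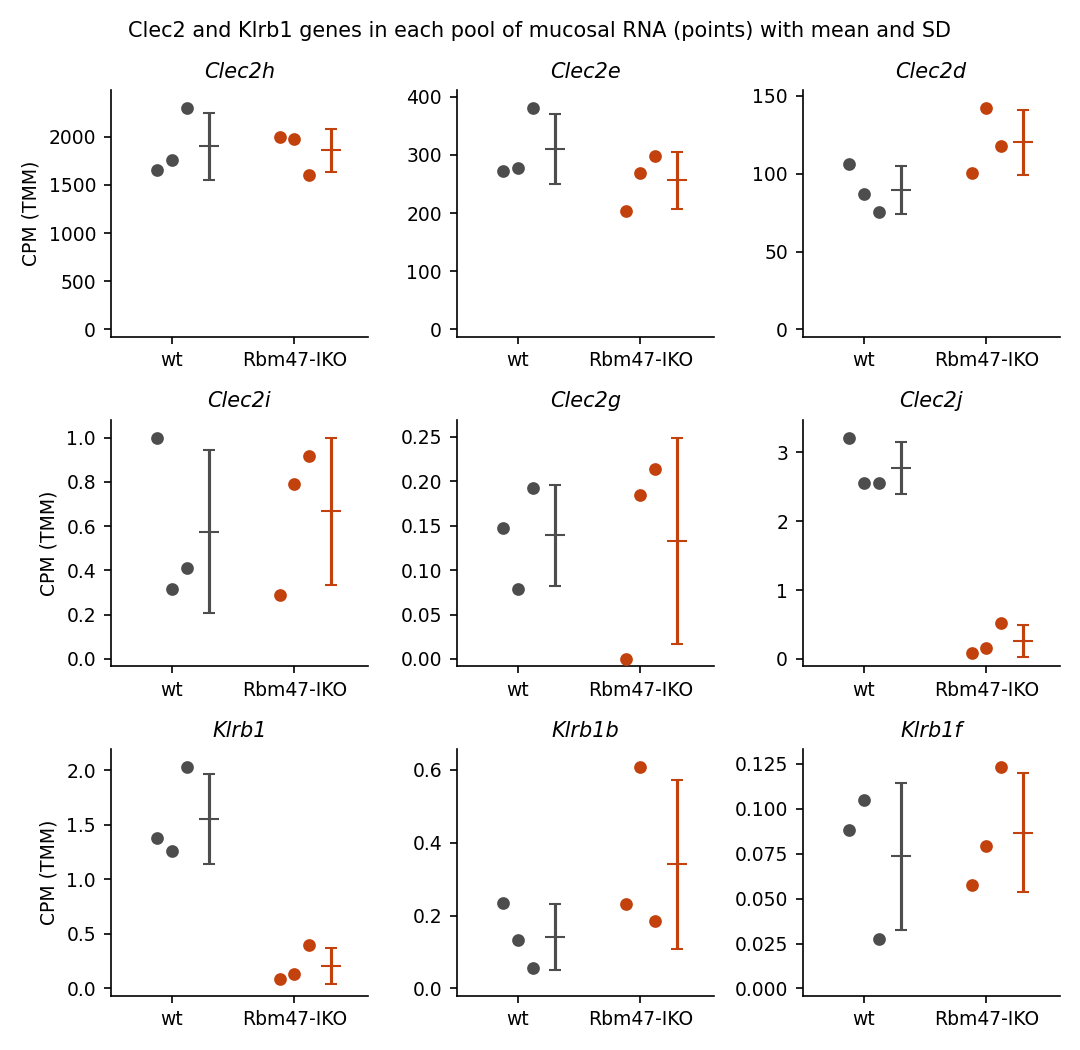
Each panel plots 1 gene, with CPM (TMM-scaled) on a linear vertical axis, 1 point per pool, and a bar for the mean with its SD (n = 3 pools per genotype). Clec2j and Klrb1 are the panels in which the Rbm47-IKO points lie apart from and below the wt points. Clec2f, at 0 counts in every pool, is left out.

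The range of levels across the lectin genes was far wider than the difference of any of them between genotypes. Set per kilobase of gene model, Clec2h stood at 879.7 ± 160.4 CPM per kb in wt pools (SD, n = 3) and 859.9 ± 101.0 in Rbm47-IKO pools, the 47th highest level among tested genes by its wt mean. Clec2e followed at 137.0 ± 26.7 in wt and 113.0 ± 21.3 in Rbm47-IKO pools, and Clec2d at 73.8 ± 12.8 and 98.9 ± 17.3. The wt ranges of these 3 genes did not touch, whereas the Rbm47-IKO ranges of Clec2e (89.6 to 131.0) and Clec2d (82.6 to 117.0) overlapped. Clec2j stood at 5.37 ± 0.729 CPM per kb in wt and 0.495 ± 0.451 in Rbm47-IKO pools. Klrb1 stood at 2.42 ± 0.639 in wt and 0.319 ± 0.261 in Rbm47-IKO pools.

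Clec2j and Klrb1 had separate ranges in wt pools, with Clec2j above, and overlapping ranges in Rbm47-IKO pools. Below them came Clec2i at 0.185 ± 0.119 CPM per kb in wt, Klrb1b at 0.0631 ± 0.0406, Clec2g at 0.0499 ± 0.0204 and Klrb1f at 0.0431 ± 0.0240. In wt pools, neighbours in the order among these 4 genes overlapped in range. Clec2f had no count in any pool. The limit that 0 counts allow is 3 counts, which is 0.0790 to 0.0919 CPM in a single pool. Clec2h alone took 79.3% to 86.7% of the summed CPM of the 10 genes, depending on the pool.

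**Figure D2:**
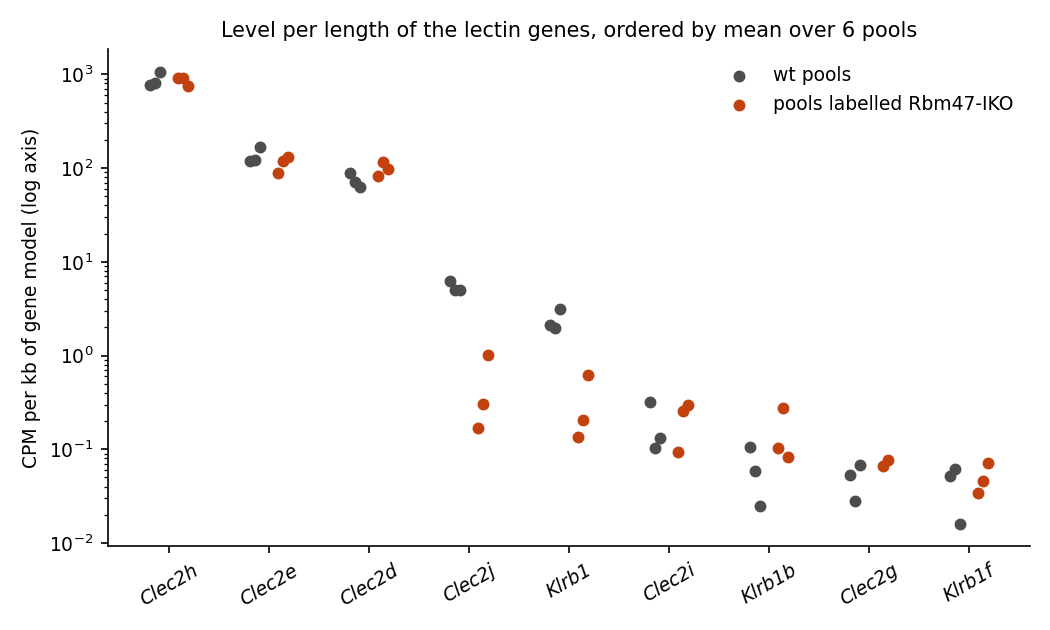
The vertical log axis gives CPM per kb of gene model, with 1 point per pool, for the 9 lectin genes that had a count, ordered by their mean over 6 pools. Clec2h, Clec2e and Clec2d lie at 62.1 CPM per kb or above in every pool, and the 4 genes at the right at 0.322 or below. Clec2j and Klrb1 lie between these in wt pools, whereas in Rbm47-IKO pools 1 and 2 both fall within the range of the 4 genes at the right. The Clec2g point of Rbm47-IKO pool 1, at 0, cannot be drawn on a log axis.

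Among the ligands, Clec2h, a ligand of Klrb1, had the smallest fitted difference. Its counts were 68995, 74779 and 52408 in the Rbm47-IKO pools and 56125, 66576 and 83662 in the wt pools. The highest and the lowest of its scaled levels, 2296 CPM in wt pool 3 and 1605 CPM in Rbm47-IKO pool 3, came from different genotypes. The ranges overlapped from 1651 to 1993 CPM, and wt pool 3 alone lay above every Rbm47-IKO pool. The fitted log2 fold change was -0.03 (SE 0.17), and it turned to 0.06 without Rbm47-IKO pool 3 and to 0.13 without wt pool 3. Relative to Vil1, the villin gene of the enterocyte brush border, Clec2h stood at 49.3%, 44.6% and 44.0% in Rbm47-IKO pools and at 35.7%, 41.3% and 48.2% in wt pools, ranges that again overlapped.

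Clec2e, which encodes Clr-a and is also known from intestinal epithelium, had counts of 7045, 10167 and 9726 in the Rbm47-IKO pools and 9247, 10563 and 13853 in the wt pools. The lowest scaled value was that of Rbm47-IKO pool 1 (203.0 CPM) and the highest that of wt pool 3 (380.1 CPM), and the groups overlapped. Its log2 fold change was -0.27 (SE 0.19). It was -0.10 (SE 0.18) without wt pool 3, -0.13 (SE 0.19) without Rbm47-IKO pool 1 and -0.48 (SE 0.22) without the pair of muscle-rich pools. The ratio of Clec2e to Clec2h was steady in wt pools, at 16.5%, 15.9% and 16.6%, and spread from 10.2% to 13.6% and 18.6% in Rbm47-IKO pools 1 to 3.

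Clec2d, the broadly expressed ligand of Klrb1b, had counts of 3470, 5379 and 3838 in the Rbm47-IKO pools and 3612, 3303 and 2747 in the wt pools. The levels were 119.9 ± 21 CPM in Rbm47-IKO and 89.5 ± 15.6 CPM in wt pools (SD, n = 3). Only wt pool 1, at 106.0 CPM, reached into the Rbm47-IKO range, above Rbm47-IKO pool 1 at 100.2 CPM. The log2 fold change of 0.42 (SE 0.17) was the highest of the 6 genes. The 3 abundant ligands thus had fitted differences of both signs.

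Clec2i, a ligand of Klrb1f, was near the lower end of what was counted, with 10, 30 and 30 counts in the Rbm47-IKO pools and 34, 12 and 15 in the wt pools. Its pools were mixed between genotypes, and the log2 fold change of 0.22 (SE 0.59) became -0.08 without Rbm47-IKO pool 3, -0.08 without wt pool 2, and -0.37 without both. Clec2i overlaps BC035044 on the opposite strand, and whether the counting used strand is not given in the sources used here, so reads of this pair could not be told apart. Clec2g had 0, 7 and 7 counts in the Rbm47-IKO pools and 5, 3 and 7 in the wt pools. Its groups overlapped, and counts this low cannot show a small difference. Clec2g overlaps Gm15987 on the opposite strand, so the limit on strand holds for that pair as well.

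Clec2j was the ligand-family gene with the largest difference. It had 3, 6 and 17 counts in the Rbm47-IKO pools and 109, 97 and 93 in the wt pools, so that the highest Rbm47-IKO pool (0.521 CPM) lay well below the lowest wt pool (2.55 CPM). The fitted log2 fold change was -3.44 (SE 0.58), a level 10.9-fold higher in wt pools. Pool 1 of Rbm47-IKO, at 3 counts, was at the floor. The fitted value ran from -4.45 without Rbm47-IKO pool 3 to -3.04 without Rbm47-IKO pool 1, and was -4.51 without the pair of muscle-rich pools.

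GENCODE M21 classes Clec2j as an unprocessed pseudogene and Clec2f as a transcribed unprocessed pseudogene. Such a gene is a copy that has lost its open reading frame. The counts of Clec2j are thus of RNA and say nothing of a protein. Clec2j is transcribed away from Clec2h, with 565 bases between the gene starts in GENCODE M21, and the 250 bases before the start in the Clec2h window printed above lie within that gap. The gene model in the deposited tables is shorter, and places the starts 5353 bases apart. Clec2j stood at 0.00435% to 0.0324% of the Clec2h level in Rbm47-IKO pools and at 0.111% to 0.194% in wt pools. Clec2h thus varied little where Clec2j varied much.

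Reads that could belong to more than one lectin gene bear on these counts. The Clec2j transcript was 94.2% identical to that of Clec2g over 412 aligned bases and 94.2% identical to that of Clec2d over 414. Of its 557 windows of 50 bases, 2.2% also occurred in another gene's transcript, in each case that of Clec2g. The share was 2.0% for Clec2d, 3.8% for Clec2g, 2.8% for Clec2h and 5.9% for Clec2i, and no window of Clec2e, Klrb1 or Klrb1f was shared. Klrb1b stood apart, with 29.0% of its windows also present in Klrb1a, Klrb1c or Gm44511, so its counts are uncertain. How the authors treated reads with several positions is not given in the sources used here, and the part of shared reads in the difference of Clec2j was not tested.

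Of the 3 listed receptors, Klrb1 alone passed the filter on low counts. Klrb1 had 3, 5 and 13 counts in the Rbm47-IKO pools and 47, 48 and 74 in the wt pools. All Rbm47-IKO pools were low, with the highest at 0.398 CPM in the muscle-rich pool 3 as for Clec2j, and all wt pools were at 1.26 CPM or above. The fitted log2 fold change was -2.92 (SE 0.56), a level 7.56-fold higher in wt pools. It ran from -3.78 without Rbm47-IKO pool 3 to -2.56 without Rbm47-IKO pool 1 and was -3.92 without the pair of muscle-rich pools. In mucosal RNA, fewer cells of a type and less RNA per cell cannot be told apart.

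Genes that mark intraepithelial T cells were then set beside Klrb1. Of 15 listed genes, 14 were tested and none was called by edgeR, DESeq2 or limma-voom, with 1 at an unadjusted p under 0.05 in edgeR. Over all tested genes, 16.8% had an unadjusted p under 0.05, and 2.70% were called by edgeR, 7.57% by DESeq2 and 2.62% by limma-voom. The median log2 fold change was -0.12, with 9 values below 0 and 5 above it, from -0.78 for Cd8b1 to 0.36 for Gzmb. In 1 of the 14, Cd160, a receptor of cytotoxic lymphocytes, all Rbm47-IKO pools lay below all wt pools, as in 11.6% of all tested genes. Cd160 had a log2 fold change of -0.62 (SE 0.26, adjusted p = 0.294, edgeR). Cd3e, a subunit of the T cell receptor complex, stood at 6.13 ± 0.42 CPM in Rbm47-IKO and 5.52 ± 0.795 CPM in wt pools (SD, n = 3). The summed CPM of the list was 202.0 to 297.0 in Rbm47-IKO and 225.0 to 322.0 in wt pools. Relative to Cd3e, Klrb1 stood at 1.48%, 2.23% and 6.02% in Rbm47-IKO pools and at 21.8%, 26.5% and 37.4% in wt pools. Relative to Cd8a, whose log2 fold change was 0.00, Klrb1 stood at 0.336%, 0.579% and 2.02% in Rbm47-IKO pools and at 4.61%, 7.21% and 9.85% in wt pools. Relative to Il2rb, a cytokine receptor chain of cytotoxic lymphocytes, it stood at 0.485%, 0.820% and 3.42% in Rbm47-IKO pools and at 10.7%, 11.3% and 18.9% in wt pools.

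Natural killer cells share most of their listed markers with cytotoxic T cells. Ncr1, a defining receptor of these cells, had at most 9 counts in any pool and Eomes, a transcription factor of the lineage, at most 6. Of the 11 natural killer and innate lymphoid genes listed, 8 were tested, and Areg, which encodes the growth factor amphiregulin and is also made by epithelial cells, was called higher (log2 fold change 1.56, SE 0.16, adjusted p = 0.00875), where 2.70% of all tested genes were called. The median of the list was 0.17, with 5 values above 0 and 3 below it, 2 at an unadjusted p under 0.05 (16.8% over all genes) and 2 whose groups did not overlap (23.3%). Beside Areg, this was Il7r, the interleukin-7 receptor (log2 fold change -0.81, SE 0.33, adjusted p = 0.274, edgeR). Genes that T cells also express were well counted, such as Nkg7 at 153 to 280 and Il2rb at 380 to 619 counts per pool. The part of natural killer cell number in the Klrb1 values was not tested.

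Klrb1b, the receptor of Clec2d, had 8, 23 and 6 counts in the Rbm47-IKO pools and 8, 5 and 2 in the wt pools. The value of Rbm47-IKO pool 2 stood above the rest, and the groups overlapped. Klrb1f, a receptor of Clec2i, had 2, 3 and 4 counts in the Rbm47-IKO pools and 3, 4 and 1 in the wt pools, at or close to the floor of 3 counts. Counts this low cannot show a small difference in either receptor. Clec2d and Clec2i, the ligands named with them, had higher levels per kb than the receptors.

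The other genes of these families gave low counts of mixed direction. Klrb1c, which encodes the activating receptor NK1.1, had 16, 20 and 12 counts in the Rbm47-IKO pools and 8, 1 and 3 in the wt pools. Its Rbm47-IKO pools all lay above its wt pools, with a log2 fold change of 1.98 (SE 0.65, adjusted p = 0.172, edgeR), opposite in sign to Klrb1. The fitted value of Klrb1c ran from 1.51 without wt pool 2 to 2.99 without wt pool 1. Klrb1a, another activating receptor, had 15, 15 and 8 counts in the Rbm47-IKO pools and 5, 2 and 5 in the wt pools, and did not pass the filter. Klrb1a and Klrb1c share windows with Klrb1b, so their counts are uncertain too, and the share of their own windows was not computed. The pseudogene Klrb1-ps1 had 0, 0 and 1 counts in the Rbm47-IKO pools and 1, 5 and 4 in the wt pools. Clec2l had at most 4 counts in a pool and Clec2m at most 1, and no row was matched to Klrb1d.

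Between the outermost lectin genes lay 10 further genes of the tables, 1 of them not in GENCODE M21, of which 4 passed the filter and 1 was called lower, BC064078, beside 1.25% called lower over all genes. BC064078 is a transcribed unprocessed pseudogene that starts 330.6 kb from the Clec2h start. It had 25, 27 and 31 counts in the Rbm47-IKO pools and 112, 107 and 95 in the wt pools, a log2 fold change of -1.87 (SE 0.27, adjusted p = 0.0188, edgeR). Its groups lay far apart, yet it kept the call only without wt pool 1 or wt pool 2 among the 6 fits that left out a pool, with adjusted p from 0.0326 to 0.135. Gm15987, annotated antisense to Clec2g, had 9, 12 and 11 counts in the Rbm47-IKO pools and 25, 34 and 51 in the wt pools (log2 fold change -1.72, SE 0.38, adjusted p = 0.0653). Reads of Gm15987 and Clec2g could not be told apart where they overlap, as use of strand is not given. BC035044, antisense to Clec2i, had 18, 25 and 20 counts in the Rbm47-IKO pools and 24, 16 and 19 in the wt pools, with ranges that overlapped and a log2 fold change of 0.12 (SE 0.35, adjusted p = 0.921).

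In the 1 Mb on each side of the cluster, 68 genes were listed, 25 were tested and 2 were called, both lower, where 1.25% of all tested genes were called lower. Nearest was 2310001H17Rik, a long non-coding RNA beyond Clec2d that was singled out after its values were seen. It had 261, 277 and 281 counts in the Rbm47-IKO pools and 546, 479 and 546 in the wt pools (log2 fold change -0.90, SE 0.15, adjusted p = 0.0316), and the call held only without wt pool 2 among the fits that left out a pool. The other was Klrh1, listed as Gm156, a lectin-like receptor gene, described with its relatives below. The genes with lower values were thus interspersed with genes that did not pass the threshold, among them Clec2h, Clec2i, Clec2e and Clec2d.

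**Figure D3:**
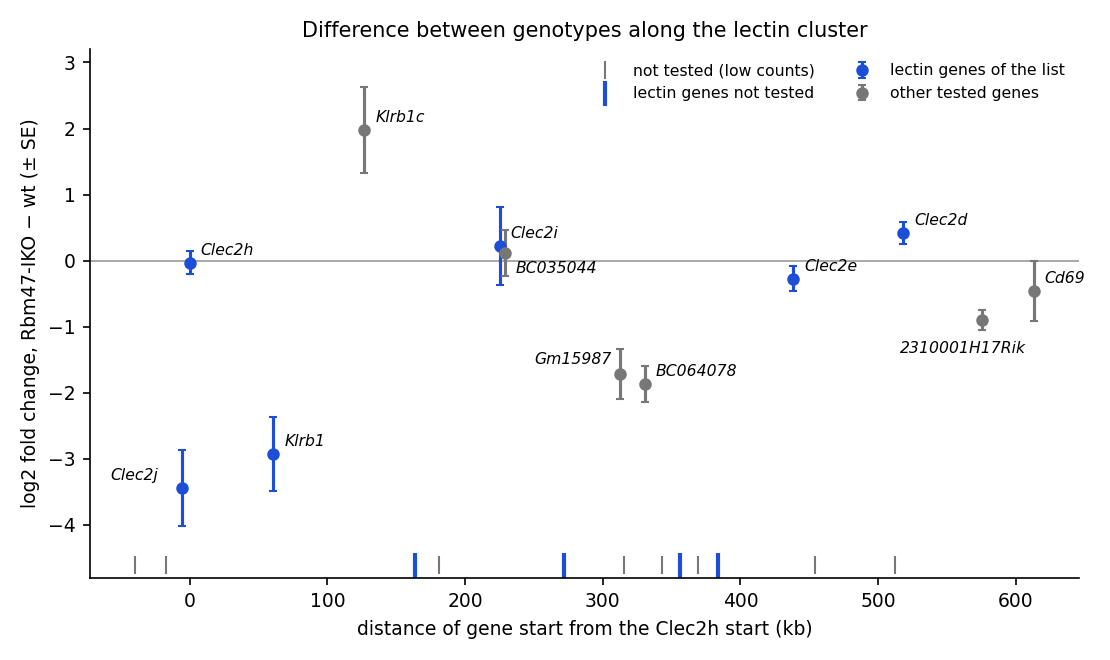
The horizontal axis gives the distance of each gene start from the Clec2h start in kb, and the vertical axis the log2 fold change of Rbm47-IKO against wt pools with its SE. Points are tested genes, and ticks along the bottom mark genes with too few counts to test. Clec2j at -3.44 and Klrb1 at -2.92 flank Clec2h at -0.03.

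Other receptors of the natural killer complex were tested in 8 of 23 cases. Klrh1 was called lower, with 20, 15 and 22 counts in the Rbm47-IKO pools and 45, 88 and 97 in the wt pools (log2 fold change -1.93, SE 0.38, adjusted p = 0.046, edgeR), the 1 call among these 8 where 1.25% of all tested genes were called lower. Of the 8, 3 had an unadjusted p under 0.05 (16.8% over all genes), 3 had groups that did not overlap (23.3%), 2 were called by DESeq2 (Klri1 and Klrh1, 7.57%) and 0 by limma-voom (2.62%). The call held without wt pool 1 and was lost without any of the other 5 pools, with limma-voom (adjusted p = 0.0579) and without the muscle-rich pair (0.0762). Klri1, an inhibitory receptor chain, had 6, 9 and 14 counts in the Rbm47-IKO pools and 15, 59 and 60 in the wt pools, with groups that did not overlap (log2 fold change -2.11, SE 0.60, adjusted p = 0.117). It passed only under DESeq2 and without wt pool 1. Klrk1, which encodes the activating receptor NKG2D, had 11, 9 and 8 counts in the Rbm47-IKO pools and 12, 39 and 27 in the wt pools (log2 fold change -1.40, SE 0.47, adjusted p = 0.184), and the value was -0.99 without the pair of muscle-rich pools. Klrd1, which encodes CD94, was level at 3.40 CPM in both groups. The list had a median log2 fold change of -0.50, with 6 values below 0, Klrd1 at 0.00 and Klra2 at 0.29. Klri2, which did not pass the filter and was singled out after its values were seen, had 0, 2 and 0 counts in the Rbm47-IKO pools and 7, 13 and 24 in the wt pools.

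The adaptors and kinases that act below these receptors were examined in the same way. Of 10 listed genes, 9 were tested, and none was called by edgeR, DESeq2 or limma-voom (over all genes, 2.70%, 7.57% and 2.62%). None reached an unadjusted p under 0.05 in edgeR (0 of 9, beside 16.8% over all genes). The median log2 fold change was -0.10, with 7 values below 0 and 2 above it. The largest differences were in Cd247, the zeta chain of the T cell receptor complex (log2 fold change -0.36, SE 0.29), Fcer1g, an adaptor of activating NKR-P1 receptors (0.22, SE 0.22), and Hcst, the adaptor DAP10 (0.15, SE 0.28). Ptpn6, the phosphatase SHP-1 that inhibitory receptors recruit, had a log2 fold change of -0.12 (SE 0.12).

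**Figure D4:**
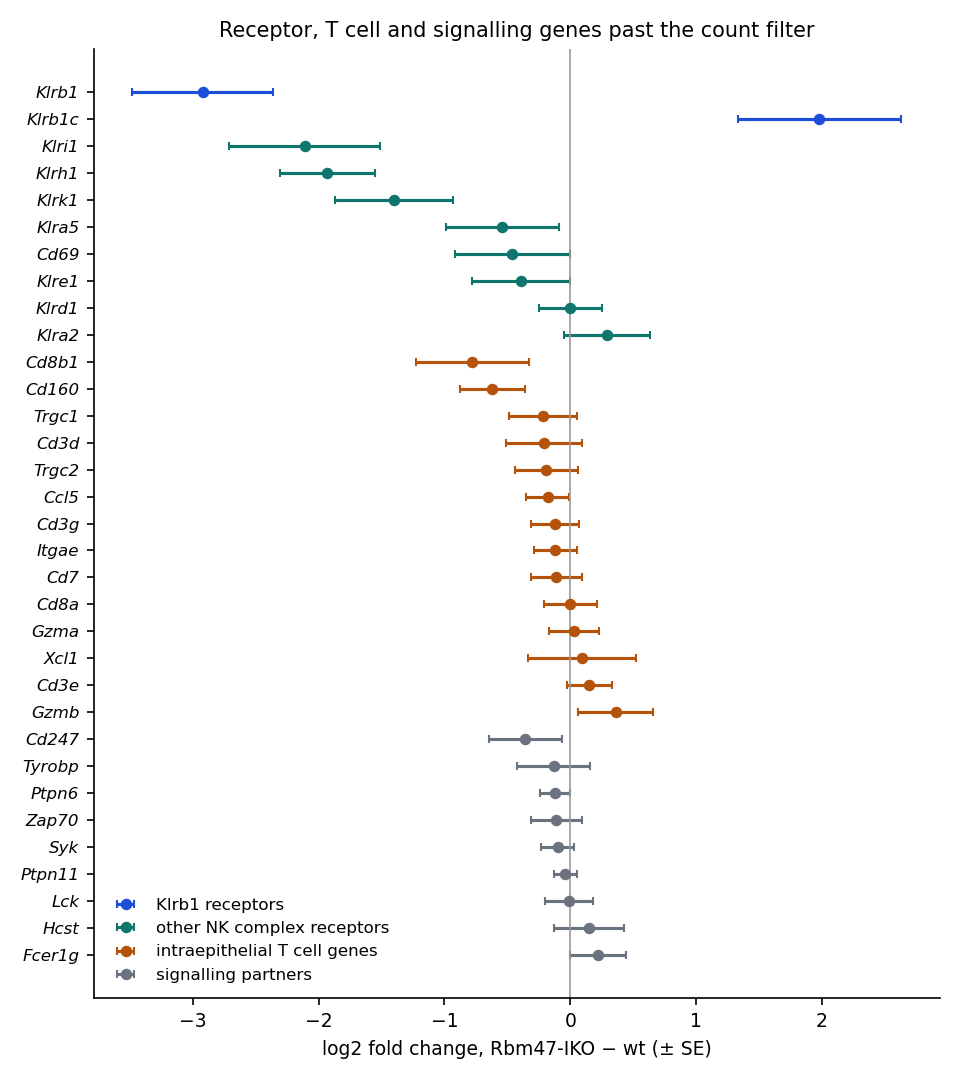
The horizontal axis gives the log2 fold change of Rbm47-IKO against wt pools with its SE, for tested receptor genes, intraepithelial T cell genes and signalling partners, coloured by list. Klrb1 lies at -2.92 and Klrb1c at 1.98, whereas the T cell genes lie between -0.78 and 0.36.

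Other ligands by which enterocytes engage lymphocytes were examined next. Of 16 listed genes, 12 were tested and none was called by edgeR, with 2 at an unadjusted p under 0.05. DESeq2 called 2 (Btnl6 and Il18) and limma-voom none. Over all tested genes these shares were 2.70% by edgeR, 16.8% at an unadjusted p under 0.05, 7.57% by DESeq2 and 2.62% by limma-voom. In 5 of the 12 the groups did not overlap (H60b, H2-T3, H2-T23 and Btnl6 lower, Il18 higher), as in 23.3% of all tested genes. Btnl6, a butyrophilin-like protein for gut gamma-delta T cells, stood at 41.8 ± 2.85 CPM in Rbm47-IKO and 59.2 ± 10.5 CPM in wt pools (log2 fold change -0.50, SE 0.14, adjusted p = 0.121). Il18, an epithelial cytokine, stood at 52.5 ± 5.48 and 35.3 ± 8.68 CPM (0.57, SE 0.18, adjusted p = 0.158). H60b, a ligand of NKG2D, had at most 21 counts in a pool (log2 fold change -0.88, SE 0.49, adjusted p = 0.438). The list's median log2 fold change was -0.07.

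Myeloid C-type lectins, relatives with other binding partners, were tested in 6 of 12 cases. None was called by edgeR, DESeq2 or limma-voom (over all genes, 2.70%, 7.57% and 2.62%). None reached an unadjusted p under 0.05 in edgeR (0 of 6, beside 16.8% over all genes). In 1 of the 6, Clec4n, all Rbm47-IKO pools lay below all wt pools (log2 fold change -0.37, SE 0.29), as in 11.6% of all tested genes. The largest differences were in Clec4a2 (log2 fold change -0.53, SE 0.41), Clec1a (-0.49, SE 0.51) and Clec7a, the beta-glucan receptor Dectin-1 (-0.39, SE 0.40).

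The markers of the tissue placed these pools in small intestinal mucosa. The 12 enterocyte genes summed to 59739 to 64965 CPM in Rbm47-IKO and 68039.8 to 75141 CPM in wt pools. Their log2 fold changes went both ways, 6 above 0 and 6 below it, with a median of -0.04. In 5 of the 12 the groups did not overlap (Apob, Apoa4 and Sis lower, Anpep and Fabp2 higher), as in 23.3% of all tested genes. Apob stood at 10378 CPM in Rbm47-IKO and 18912 CPM in wt pools on average. None was called in edgeR (2.70% over all genes), with 5 at an unadjusted p under 0.05, 4 called by DESeq2 and 1 by limma-voom (over all genes, 16.8%, 7.57% and 2.62%). Of 7 upper villus genes, Nt5e, which encodes the ectoenzyme CD73, was called lower (log2 fold change -1.09, SE 0.17, adjusted p = 0.0219), as were 1.25% of all tested genes. Of these 7, 3 had an unadjusted p under 0.05, 3 were called by DESeq2 (Egfr, Apoa4 and Nt5e), 1 by limma-voom, and 4 had groups that did not overlap (over all genes, 23.3%), with a median of -0.40. Of 8 crypt genes, 7 had log2 fold changes below 0 (median -0.43) and none was called by edgeR, with 2 at an unadjusted p under 0.05 and 1 called by DESeq2. This was Olfm4, a crypt base gene, at 15.2 ± 2.49 CPM in Rbm47-IKO and 47.8 ± 29.8 CPM in wt pools (log2 fold change -1.65, SE 0.43, adjusted p = 0.0974, edgeR), with groups that did not overlap. Of 6 genes of the distal small intestine, 5 were above 0 (median 0.42). None was called by edgeR, with 2 at an unadjusted p under 0.05. DESeq2 called 1, Amn (log2 fold change 0.53, SE 0.11, in edgeR), and limma-voom 0. Fabp6, the ileal bile acid binding protein, stood at 31.7, 39.8 and 18.6 CPM in Rbm47-IKO pools and at 17.2, 3.98 and 2.55 CPM in wt pools, with groups that did not overlap (log2 fold change 1.93, SE 0.67, adjusted p = 0.201, edgeR). The proximal list of 6 genes also had 5 above 0 (median 0.18), with none called by edgeR, DESeq2 or limma-voom. Of these 6, 2 had an unadjusted p under 0.05 in edgeR and 2 had groups that did not overlap (over all genes, 16.8% and 23.3%). Olfm4 and Fabp6 were singled out after their values were seen. All 8 B cell and plasma cell genes had log2 fold changes below 0, with a median of -0.75 and none called (0 at an unadjusted p under 0.05 in edgeR, and 0 by DESeq2 or limma-voom). In 3 of the 8 (Cd79a, Cd79b and Pou2af1) all Rbm47-IKO pools lay below all wt pools, where 11.6% of all tested genes did so, and the list's summed level was 259.6 to 334.0 CPM in Rbm47-IKO and 313.0 to 350.3 CPM in wt pools. The 4 Y-linked genes summed to 53.0 to 144.0 CPM in Rbm47-IKO and 87.9 to 220.3 CPM in wt pools. The part of villus, crypt and segment composition, of B cells and of sex in the values of Clec2j and Klrb1 was not tested.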

How the data were processed

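Polyadenylated RNA of 6 mucosal pools was sequenced on an Illumina HiSeq2000. The authors deposited 1 table per pool with a count of reads for each of 38561 Ensembl genes, and beside it the deposited CPM (count scaled to the pool's total) and the deposited RPKM (CPM per kilobase), which were not used further. The submitters' processing notes name GRCm38, STAR 2.5.1a, Subread and featureCounts 1.4.6-p5; use of strand and of reads with several positions is not given in the sources used here. Positions and lengths are those of the tables, and symbols came from GENCODE M21, in which 36723 genes were found; genes not found held 0.346% of counts. Clec2m and Klrh1 were matched by RefSeq synonym (as 4922502D21Rik and Gm156).

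Counts were tested with edgeR 4.0.16 in R 4.3.3 (filterByExpr, TMM, quasi-likelihood test, all 6 pools, Benjamini-Hochberg adjusted p of 0.05 or less over 16425 genes). CPM in the text uses TMM library sizes, and log2 CPM had a prior count of 2. The smallest exact permutation p this design allows is 0.1. Floors are 3 counts and cover counting error only. Alternatives were DESeq2 1.42.0, limma-voom (limma 3.58.1), RLE factors, library size only, no filter, 1 CPM in 3 pools, the pool number as a block, each pool left out, and, added after the data were seen, the muscle-richest pool of each genotype left out. Sequences were compared with Biopython 1.88.

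The members and gene lists were chosen with earlier results of these data known. Named genes were Rbm47, the members and their family, called list genes and the 3 largest differences of each pathway list. Also named were tested genes between the outermost members, and the 3 non-member genes closest in pattern to Clec2h, Clec2e, Clec2d and Klrb1. Others are values chosen after they were seen.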

Additional observations from a re-analysis of the deposited data

How the results depend on the processing

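The number of genes called was 443 with edgeR and TMM, 1243 with DESeq2 and 100 with the replicate block (the pool number as a block), and from 0 to 431 when a single pool was left out; the 0 calls, without Rbm47-IKO pool 2, came with 1729 genes at an unadjusted p under 0.05. The 2 lectin genes called lower became 0 with the replicate block and 0 to 2 without a single pool. With the block, adjusted p was 0.0711 for BC064078 and 2310001H17Rik, and 0.093 for Klrh1. Same-numbered pools had correlations of 0.408, -0.003 and -0.277, and pools of different numbers from -0.536 to 0.479. The highest was between the 2 muscle-rich pools, Rbm47-IKO pool 3 and wt pool 2. So few values cannot settle whether the numbers pair the pools. Clec2j and Klrb1 kept a negative log2 fold change in all 14 alternatives, from -4.51 to -3.04 and from -3.92 to -2.56. When a pool was left out, values ran from -0.39 to -0.10 for Clec2e, -0.13 to 0.13 for Clec2h, -0.08 to 0.87 for Clec2i and -0.03 to 0.34 for BC035044. Reversed signs were those of Clec2h without Rbm47-IKO pool 3 (0.06) and wt pool 3 (0.13), Clec2i without Rbm47-IKO pool 3 (-0.08), wt pool 2 (-0.08) and both (-0.37), and BC035044 without wt pool 2 (-0.03) and both (-0.06). The causes were not tested. Of 202 values of single genes under alternatives, 161 kept their direction and side of the threshold. Depth hides small differences in Clec2g, Klrb1b and Klrb1f, which had at most 23 counts in a pool. DESeq2 gave no adjusted p for Klrb1c and Klrk1, which stand outside the counts of single genes.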

Other observations

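Genes outside the 10 lectin genes were ranked by how like a lectin gene their pattern over the 6 pools was. The measure was the root mean square difference of centred log2 CPM, as a description with no test. Clec2j was left out with the other lectin genes, so it could not be named as a match to Klrb1. Closest to Clec2h were Ssx2ip (0.0304), Ndufs1, a subunit of respiratory complex I (0.0377), and Gk, glycerol kinase (0.0379). Closest to Clec2e were 2610044O15Rik8 (0.0465), Msh3, a DNA mismatch repair gene (0.0776), and Grap (0.0802). Closest to Clec2d were Tmem67 (0.0606), Arhgap31 (0.0917) and Trp53, the gene for p53 (0.0956). Closest to Klrb1 among these genes were 3 immunoglobulin variable segments, Igkv4-86 (0.312), Ighv1-59 (0.487) and Ighv1-76 (0.576). These distances were larger than those of the abundant ligands, but counting error at the low counts of Klrb1 adds to them. Igkv4-86 stood at 0, 0.0528 and 0.123 CPM in Rbm47-IKO pools and at 0.382, 0.632 and 0.988 CPM in wt pools.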
